A study of Homo sapiens with 2 samples.

Results

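The genes described here are 9 transcription factors and cofactors of kidney development, namely PAX2, PAX8, LHX1, SIX2, EYA1, SALL1, WT1, GATA3 and OSR1. They were chosen by name for their known roles in the embryonic kidney, with earlier results of these data known but by a rule that uses no measured value, and all 9 were found among the 19198 genes listed in both libraries. Expression was measured by sequencing of polyA RNA in cells labelled A549, an established human non-small cell lung cancer (NSCLC) line derived from a lung adenocarcinoma. A549-NICD1 cells overexpressed NICD1, the intracellular domain of the NOTCH1 receptor, which acts in the nucleus with the DNA-binding protein RBPJ. A549-Vector cells carried the control vector. The paper describes lentiviral NICD1 vectors and stable lines made by retroviral or lentiviral infection. It does not say which was used for the sequenced cells. Each condition was sequenced as 1 library, so no value below has a replicate check and no p-value is given. The comparison asks which transcripts differ when Notch1 signaling is switched on constitutively.

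The kidney arises from intermediate mesoderm, where OSR1, LHX1, PAX2 and PAX8 are among the earliest factors made. From there a branching ureteric bud, which depends on PAX2, LHX1 and GATA3, meets a cap of nephron progenitors that is kept by SIX2, EYA1, SALL1, OSR1 and WT1. Notch signaling in these progenitors is known to favour their exit toward a forming nephron, in which LHX1 and PAX8 come on and WT1 later persists in podocytes, the filter cells of the glomerulus.

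Transcripts of 8 of the 9 factors were present at about 1 FPKM or more in both libraries. FPKM scales the reads of a gene by its length and by the depth of the library, so it allows genes of different length to be compared. The exception was PAX8, which was near 0 in both. The lowest level among the other 8 was 1.14 FPKM (A549-Vector) and 0.893 FPKM (A549-NICD1). The depths were 48602848 reads (A549-Vector) and 48528434 reads (A549-NICD1). At the median gene length 3 reads were worth 0.0197 FPKM, the limit that a count of 0 allows. Of the 9 factors 8 reached 1 FPKM in A549-Vector and 6 in A549-NICD1, beside 64% and 63.6% of all genes. The median level of the 9 was 3.42 and 3.16 FPKM, and that of all genes was 4.71 and 4.37 FPKM.

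The label of the NICD1 library was checked first with NOTCH1, whose level was 5.4 FPKM in A549-Vector against 2865 FPKM in A549-NICD1. The ratio of its reads, 1293833 over 2441, gave a log2 fold change of 9.11, with a 95% counting interval of 9.05 to 9.17. The label of the cell line was checked with 28 lung epithelial and A549 genes. Of these, 9 reached 1 FPKM in each library and 8 in both, among them the lung lineage factor NKX2-1 at 4.67 and 3.74 FPKM in A549-Vector and A549-NICD1 and FOXA1 at 11.5 and 8.85 FPKM. The keratins KRT7 and KRT19, the fibrinogen chains FGA and FGB and the surfactant gene SFTPC, by contrast, were at 0 in both, and the other keratins KRT8 and KRT18 were the most abundant of the list. Enzymes for which A549 is known were low, and those named here lay below the median of all genes (4.71 and 4.37 FPKM). AKR1B10 had 2 and 1 reads, AKR1C2 was at 0.258 and 0.158 FPKM, and AKR1C3 at 0.584 and 0.62 FPKM. ALDH1A1 was at 0.269 and 0.165 FPKM and AKR1C1 at 1.15 and 0.553 FPKM. Only ALDH3A1 at 1.45 and 2.01 FPKM and NQO1 at 2.16 and 2.15 FPKM reached 1 FPKM in both. The absent KRT7, KRT19, FGA and FGB and the low levels of these enzymes go against the label of the line. SFTPC and NKX2-1 were not weighed either way. A549 therefore stands below for the label, and the identity of the sequenced cells is in doubt. The part of these markers in the results on the kidney factors was not tested.

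**Figure D1:**
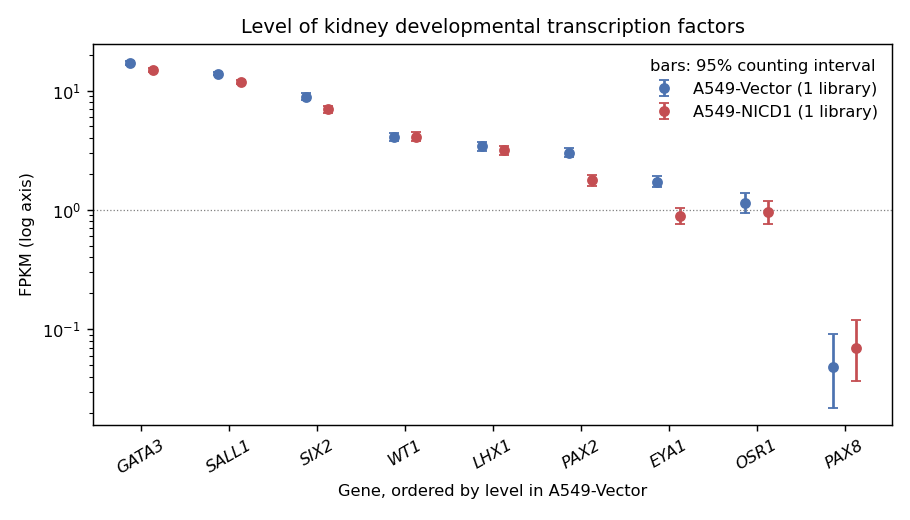
Level of each factor in FPKM (log axis) in the A549-Vector library (circles, blue) and the A549-NICD1 library (circles, red), with bars for the 95% counting interval and a dotted line at 1 FPKM. GATA3 is the highest at 16.9 and 14.8 FPKM, PAX8 the lowest at 0.048 and 0.0695 FPKM, and the pairs of points lie furthest apart for PAX2 and EYA1 among the factors above PAX8.

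The level of the factors ran from GATA3 at the top to PAX8 at the bottom, a span of 352 times in A549-Vector. This span is rough, since PAX8 had only 9 reads there. GATA3, SALL1 and SIX2 together held 74.7% of the summed level of the 9 in A549-Vector and 75.3% in A549-NICD1. In A549-Vector the order was GATA3, SALL1, SIX2, WT1, LHX1, PAX2, EYA1, OSR1 and PAX8. LHX1 and PAX2 were the only neighbours in that order whose counting intervals overlapped. In A549-NICD1, EYA1 stood below OSR1, and the intervals of that pair overlapped while those of all other neighbours did not. These intervals cover counting error only, since reads are not independent molecules, and they say nothing of the spread between cultures.

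By the rule that a gene is called when its log2 fold change lies above 1 or below -1 and either library holds 10 reads or more, none of the 9 factors was called. The share called over all 15371 genes so filtered was 6.87%, of which 4.58% lay above 1 and 2.29% below -1. With a log2 fold change below -0.58, which is a ratio of about 1.5, PAX2 and EYA1 were called, beside 6.25% of all genes. No factor lay above 0.58, beside 7.77% of all genes. All 9 passed the filter on reads, PAX8 only through the A549-NICD1 library. The log2 fold change was below 0 for 7 factors and above 0 for 2, beside 49.6% and 50.4% of all genes, and its median was -0.18 over the factors and 0.00 over all genes.

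**Figure D2:**
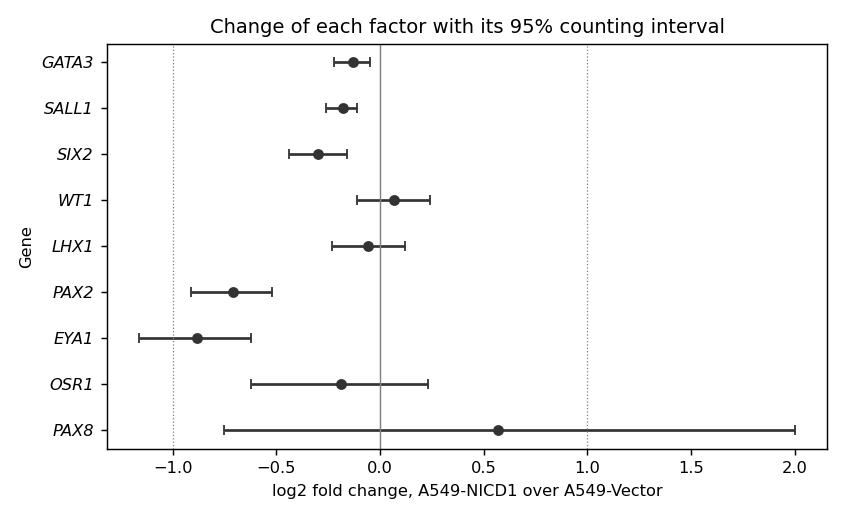
Log2 fold change of each factor, A549-NICD1 over A549-Vector (points), with its 95% counting interval (bars), a line at 0 and dotted lines at -1 and 1. The points for EYA1 at -0.88 and PAX2 at -0.71 lie lowest, and the interval of PAX8 is the widest, from -0.75 to 2.0.

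Among the factors of the nephron progenitors, EYA1 had the lowest fold change. EYA1 is a phosphatase and coactivator that works with SIX2 and its relatives, and its loss leaves the metanephric kidney unformed. It was at 1.72 FPKM with 337 reads in A549-Vector, against 0.893 FPKM with 175 reads in A549-NICD1. The log2 fold change was -0.88, with a counting interval of -1.16 to -0.62, and the ratio of A549-NICD1 to A549-Vector was 0.542. The interval reaches past -1, so that counting error alone leaves both sides of the rule of size possible for EYA1.

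SIX2, the factor that keeps nephron progenitors undifferentiated, was higher than its partner EYA1 in both libraries. Its level was 8.88 FPKM in A549-Vector against 6.95 FPKM in A549-NICD1. The log2 fold change of SIX2 was -0.30, with a counting interval of -0.44 to -0.16. The reads behind SIX2 were taken as 930 and 726, but the values also allow as few as 155 and 121, and with these the interval was -0.65 to 0.06 and held 0.

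SALL1, a zinc finger repressor made in the progenitors, was second in both libraries. It stood at 13.9 FPKM with 3506 reads in A549-Vector, against 11.7 FPKM with 2958 reads in A549-NICD1. Its log2 fold change was -0.18, from -0.26 to -0.11 by counting.

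OSR1, the zinc finger factor of the early intermediate mesoderm, was the lowest of the progenitor factors in A549-Vector. A549-Vector held 105 reads of it (1.14 FPKM) and A549-NICD1 held 88 (0.957 FPKM). With so few reads the log2 fold change of -0.19 had an interval of -0.62 to 0.23, and a difference for OSR1 was not detectable at this depth.

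WT1, a zinc finger protein needed first for survival of the mesenchyme and later in podocytes, was level between the libraries. A549-Vector held 553 reads of it (4.09 FPKM) and A549-NICD1 held 555 (4.11 FPKM). For WT1 the log2 fold change was 0.07, with an interval of -0.11 to 0.24, and this interval excludes a ratio as large as that of PAX2 or EYA1.

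Among the factors of the nephric duct and ureteric bud, PAX2 differed most. PAX2 is a paired-box factor required for the nephric duct, the ureteric bud and the condensing mesenchyme. Its level was 3.02 FPKM with 588 reads in A549-Vector, against 1.77 FPKM with 344 reads in A549-NICD1. The log2 fold change of PAX2 was -0.71, with an interval of -0.91 to -0.52, and the ratio of A549-NICD1 to A549-Vector was 0.61. The whole interval lies between -1 and 0, which puts PAX2 under the rule of size and away from no difference, as far as counting error goes.

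PAX8, a close relative of PAX2 that acts redundantly with it in the nephric lineage and stays on in adult tubules and in thyroid, was nearly absent. It had 9 reads in A549-Vector (0.048 FPKM) and 13 in A549-NICD1 (0.0695 FPKM), so that PAX2 stood 62.8 times above it in A549-Vector and 25.4 times in A549-NICD1. These ratios are rough, since the counting intervals of PAX8 ran from 0.022 to 0.0912 FPKM (A549-Vector) and 0.037 to 0.119 FPKM (A549-NICD1). The log2 fold change of 0.57 had an interval of -0.75 to 2.0, so the data show no direction for PAX8.

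LHX1, a LIM-homeobox factor of the nephric duct and later of the renal vesicle, had 570 reads in A549-Vector (3.42 FPKM) and 526 in A549-NICD1 (3.16 FPKM). Its log2 fold change of -0.06 had an interval of -0.23 to 0.12. As far as counting error goes, the level of LHX1 was within that range of no difference, and its interval does not reach that of PAX2.

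GATA3, a zinc finger factor of the nephric duct and the collecting system that is also known from T cells and the breast, was the most abundant of the 9. It stood at 16.9 FPKM with 2524 reads in A549-Vector, against 14.8 FPKM with 2207 reads in A549-NICD1. For GATA3 the log2 fold change was -0.13, from -0.22 to -0.05, the smallest difference whose interval excluded 0.

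Counting intervals lay below 0 for 5 factors, GATA3, SALL1, SIX2, PAX2 and EYA1, and above 0 for none. Over all genes 29.3% lay below 0 in this way and 30.2% above it. With the smallest reads the values allow, SIX2 dropped out and 4 remained. Summed over the 9, the level was 53.1 FPKM in A549-Vector against 44.4 FPKM in A549-NICD1, a difference of 16.3%. In a bulk library a lower level in every cell and fewer cells with the transcript cannot be told apart.

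**Figure D3:**
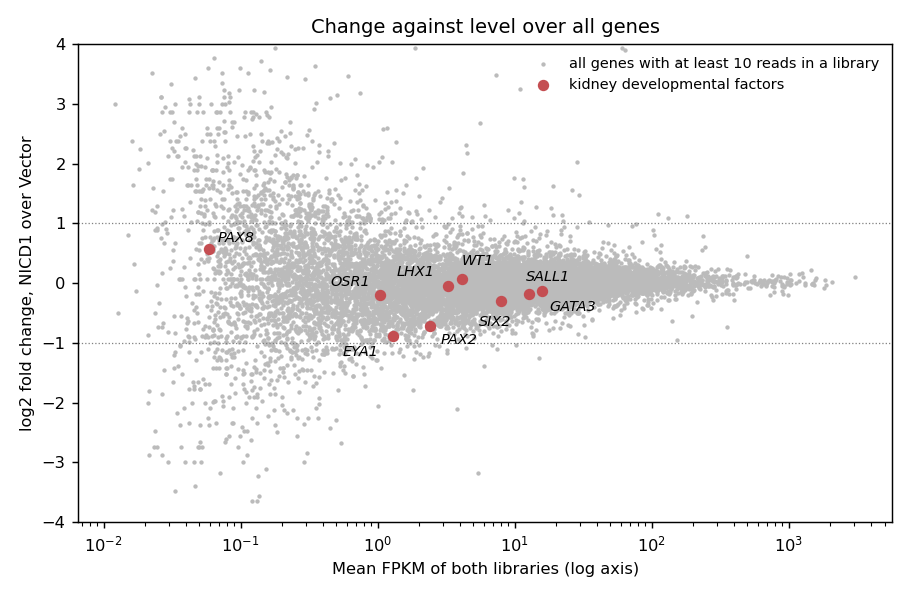
Log2 fold change (A549-NICD1 over A549-Vector) against the mean FPKM of both libraries (log axis) for all genes that have 10 reads or more in either library (grey) and the 9 factors (red), with dotted lines at -1 and 1 and 112 genes beyond 4 log2 units not drawn. EYA1 and PAX2 lie at the lower edge of the cloud of genes of like level, PAX8 lies where the cloud is widest, and the others lie within it.

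The spread of fold changes depended on the level, so the factors were also set beside genes of like level. Between a mean of 1 and 5 FPKM there were 2921 genes, 5 of them factors (WT1, LHX1, PAX2, EYA1 and OSR1). A log2 fold change below -0.58 was found in 8.32% of these genes and below -1 in 0.856%. PAX2 and EYA1 were among the genes below -0.58. This band was chosen after the levels of the factors were known.

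The identity and position of the genes are given here on GRCh38, with GENCODE 29 as annotation. PAX2 (ENSG00000075891.21) spans chr10:100735603-100829941 on the plus strand and GATA3 (ENSG00000107485.16) spans chr10:8045378-8075203, also on the plus strand. On the minus strand of chromosome 2 lie PAX8 (ENSG00000125618.16) at chr2:113215997-113278950, SIX2 (ENSG00000170577.7) at chr2:45005161-45009430 and OSR1 (ENSG00000143867.6) at chr2:19351485-19358653. LHX1 (ENSG00000273706.4) is at chr17:36936785-36944612 on the plus strand. EYA1 (ENSG00000104313.18) at chr8:71197433-71592025, SALL1 (ENSG00000103449.11) at chr16:51135975-51151367 and WT1 (ENSG00000184937.13) at chr11:32387775-32435630 are on the minus strand.

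All 9 are protein-coding, and the values are given per gene, not per isoform. Genes on the opposite strand share exonic bases with 4 of them, namely 9.3% of PAX8 (PAX8-AS1), 7.5% of LHX1, 3.7% of EYA1 and 2.7% of WT1 (WT1-AS), and the other 5 share none. None of these partners is listed in the values, and the description of the paper's supplementary data calls the sequencing strand-specific. Whether the counting used strand is not given in the sources used here, so reads of such a pair may or may not have been kept apart. Windows of 100 bases were taken every 50 bases along the longest transcript of each factor. None was found unchanged in a transcript of another gene. A shared stretch that holds no whole window, or an inexact match, as between PAX2 and PAX8 or SIX2 and SIX4, would go unseen.

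Since NICD1 acts through RBPJ, the promoters were searched for the letters at the core of the known RBPJ motif, TGGGAA, and for the longer GTGGGAA, which contains it, on both strands. RefSeq promoters on GRCh38.p14, from 250 bases before to 50 bases after each start, were at hand for PAX2, PAX8, SIX2, WT1 and GATA3, in all 14 promoters of 5 factors, and not for LHX1, EYA1, SALL1 and OSR1. TGGGAA was in 5 of the 14, beside 24% of all 35116 promoters, and GTGGGAA in 1 of the 14, beside 6.25%. The 5 matches are shown with the motif in capitals, 5′ to 3′ on the strand of the gene, to set beside the fold changes. They lie at chr10:100735254-100735303 (PAX2, plus strand), chr11:32431008-32431057 and chr11:32435540-32435580 (WT1, minus strand), chr2:113278905-113278934 (PAX8, minus strand) and chr10:8051241-8051270 (GATA3, plus strand, where the motif is read on the other strand as TTCCCA).
PAX2: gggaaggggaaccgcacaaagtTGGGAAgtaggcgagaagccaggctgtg
WT1, first site: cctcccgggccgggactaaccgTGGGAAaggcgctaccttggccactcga
WT1, second site: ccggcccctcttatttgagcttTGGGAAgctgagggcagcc
PAX8: atgccgggtggaTGGGAAcaaacttcagaa
GATA3: tttctcacctttTTCCCAagaggacacaca
The first site of WT1 is the one that holds GTGGGAA, since a G precedes the core there on the strand shown. Relative to the start sites the motif begins at position -120 for PAX2, -222 and -19 for WT1, -1 for PAX8 and 17 for GATA3. The factors with a match had log2 fold changes of -0.71 (PAX2), 0.07 (WT1), 0.57 (PAX8) and -0.13 (GATA3), and the 1 without, SIX2, had -0.30. A match of letters is not a binding site, and no binding was measured here. The 14 promoters had a median GC content of 63.3%, from 47.3% to 74.7%, beside 58.7% over all promoters, and a median of 17.5 CG pairs beside 14.

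**Figure D4:**
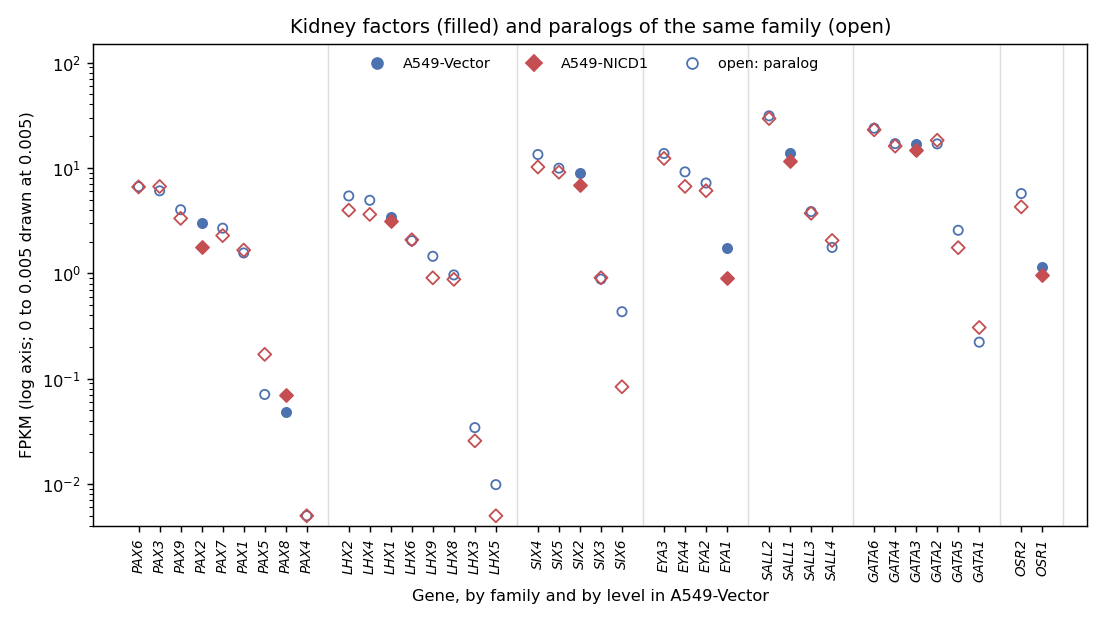
Level in FPKM (log axis, 0 drawn at 0.005) of the factors (filled) and their paralogs (open) in A549-Vector (blue circles) and A549-NICD1 (red diamonds), by family and in order of level in A549-Vector. In each of the 7 families the highest gene is a paralog and not one of the kidney factors, and EYA1 is the lowest of the EYA genes.

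The kidney factors were not the most abundant members of their own families. In each of the 7 families with paralogs plotted, a paralog was the highest gene in both libraries, and 21 of 30 paralogs reached 1 FPKM in both. SIX4, which also acts in the early kidney, stood at 13.4 and 10.2 FPKM (A549-Vector and A549-NICD1), above SIX2 in both. EYA1 was the lowest of the 4 EYA genes in A549-Vector, where EYA3 was at 13.7 FPKM, EYA4 at 9.17 FPKM and EYA2 at 7.19 FPKM.

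Of 9 PAX genes, PAX2 stood in A549-Vector behind PAX6 at 6.64 FPKM, PAX3 at 6.06 FPKM and PAX9 at 4.01 FPKM. PAX3, PAX6 and PAX9, which act in muscle and neural crest, the eye, and the teeth and thymus, stood above PAX8 by far. SALL1 was second to SALL2 (31.2 and 29.4 FPKM), and GATA3 came after GATA6 (23.8 and 23 FPKM) and GATA4 in A549-Vector. In A549-NICD1, GATA2 at 18.3 FPKM also stood above GATA3.

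Among the 32 paralogs, which include EGR1 as a zinc finger relative of WT1, 29 passed the filter on reads, 2 were called up and 1 down. PAX5, a B cell factor, rose from 0.0708 to 0.17 FPKM, and EGR1, an immediate early factor, rose from 0.919 to 3.36 FPKM, with log2 fold changes of 1.31 and 1.92. SIX6, an eye and pituitary factor, fell from 0.432 to 0.0838 FPKM (log2 fold change -2.26). The paralogs above 1 FPKM in the families of EYA1 and PAX2 lay nearer to 0, with log2 fold changes of -0.40 (EYA4), -0.18 (EYA2) and -0.10 (EYA3) for EYA and 0.05 (PAX6), 0.19 (PAX3), -0.21 (PAX9), -0.17 (PAX7) and 0.15 (PAX1) for PAX. Whether these differ from EYA1 and PAX2 beyond the spread between cultures could not be tested with 1 library each.

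Other factors of the nephric lineage were also widely present. Of 38 such factors 32 reached 1 FPKM in each library, with a median of 6.3 and 5.82 FPKM, and IRX1 and IRX2 were at 0 in both. By the mean of both libraries the most abundant were FOXC1 of the early mesoderm (92.4 and 97.9 FPKM), HOXD11 of the metanephric mesenchyme (40.6 and 24 FPKM), TFAP2A (37.5 and 28.7 FPKM) and SALL2, with POU3F3 close to them (34.1 and 24.2 FPKM). Among those nearest to GATA3 in level over both libraries, by distance in log2 of FPKM plus 0.1, were EYA3 (0.40), IRX3 (0.61) and SIX4 (0.63), a likeness that rests on 2 libraries.

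Of the 34 factors that passed the filter on reads, 1 was called up and 1 down. HNF4A, a factor of the proximal tubule and liver, had 0 reads in A549-Vector and 16 in A549-NICD1, at least 5.56-fold higher with 3 reads as the floor, although the values also allow as few as 8 reads, under the filter. TCF21, a factor of the stroma and podocytes, fell from 0.211 to 0.046 FPKM, with a log2 fold change of -2.09. The median log2 fold change of the 34 was -0.13. HOX11 paralogs, which act with PAX2 and EYA1 on GDNF, stood at log2 fold changes of -0.70 (HOXD11), -0.33 (HOXA11) and 0.06 (HOXC11).

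The signals that pass between ureteric bud and mesenchyme, several of them targets of the 9 factors, were described next. GDNF, the bud-inducing ligand that PAX2, EYA1 and SALL1 help to express, stood at 0.694 FPKM in A549-Vector against 0.998 FPKM in A549-NICD1. Its receptor RET, a target of PAX2, PAX8 and GATA3 in the duct, was at 1.57 and 1.01 FPKM and the coreceptor GFRA1 at 3.52 and 2.3 FPKM. The log2 fold changes were 0.58 for GDNF, -0.58 for RET and -0.55 for GFRA1, all short of the rule of size.

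All 24 signal genes passed the filter on reads, 2 were called up and 1 down, and the median log2 fold change was -0.42. ITGA8, the mesenchymal integrin that binds nephronectin, fell from 2.84 FPKM (957 reads) to 0.789 FPKM (266 reads), with a log2 fold change of -1.78 and an interval of -1.99 to -1.59. Its ligand NPNT was at 2.65 and 1.81 FPKM. ETV4 and ETV5, ETS factors that respond to RET and FGF signals in the bud tip, rose with log2 fold changes of 1.25 (0.882 to 2.03 FPKM) and 1.98 (0.346 to 1.32 FPKM). The most abundant signal genes were GPC3 (18.5 and 13.1 FPKM), CRIM1 (15.4 and 16.2 FPKM), FGFR1 (14.5 and 14.1 FPKM) and BMP7 (13.4 and 11.4 FPKM), and none of these was called.

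Of 10 Notch genes of the forming nephron 4 were called up and none down, namely NOTCH1 itself, HES5 (7.78 to 115 FPKM, log2 fold change 3.94), the ligand JAG1 (4.69 to 15.2 FPKM, 1.76) and HEYL (5.47 to 17.6 FPKM, 1.75). HEY1 was at 45.2 and 61.8 FPKM and NOTCH2, the receptor that acts most in the nephron, at 48.7 and 45.2 FPKM. The point values of the 9 kidney factors stayed within 1 log2 unit in the library in which HES5, a known Notch target, rose. Other known Notch targets, HEY1 (log2 fold change 0.51) and HES1 (32.7 and 37.7 FPKM, 0.26), also stayed within 1 log2 unit.

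Genes of the differentiated nephron were mostly low. Among 10 podocyte genes 4 reached 1 FPKM in both, and these (ACTN4, CD2AP, KIRREL and PODXL) are also made in many other cells. NPHS1, a defining podocyte gene and a target of WT1, had 11 and 7 reads. PLA2R1 was the only podocyte gene called, falling from 0.256 to 0.079 FPKM with a log2 fold change of -1.63.

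Among 12 proximal tubule genes only LRP2 and GGT1 reached 1 FPKM. LRP2, the endocytic receptor megalin, stood at 5.12 FPKM in A549-Vector against 2.57 FPKM in A549-NICD1, and its log2 fold change of -0.94 was just short of the rule of size. ANPEP, a brush border peptidase, was the only gene called among the 8 past the filter, and it rose from 17 to 59 reads with a log2 fold change of 1.83.

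Of 15 distal nephron and collecting duct genes 3 reached 1 FPKM in A549-Vector and 2 in A549-NICD1. AQP2, the water channel of the collecting duct, had 0 and 12 reads, at least 4.17-fold higher, and SCNN1G, a sodium channel subunit, 0 and 11 reads, at least 3.82-fold higher. The values for AQP2 also allow as few as 4 reads. AVPR2, the vasopressin receptor, had 1 and 10 reads, a log2 fold change of 2.87 with an interval of 0.57 to 8.82, and CALB1, a calcium-binding protein of the distal tubule, fell from 23 to 8 reads, a log2 fold change of -1.41. Both defining intercalated and collecting duct genes FOXI1 and CDH16 were at 0 in both libraries.

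Over the 6 lists of nephric factors, signals, Notch genes and nephron segments there were 109 genes, 95 of them past the filter on reads. Of these 11 were called up (11.6%) and 4 down (4.21%), beside 4.58% and 2.29% of all genes. The list of Notch genes gave 4 of the 11. Among these was NOTCH1, which was bound to be called because its intracellular domain was overexpressed. The collecting duct list gave 3 with 12 reads or fewer in each library.

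Marker genes of other cells were set beside the 9 factors. Of the 28 lung and A549 genes 18 passed the filter, 3 were called up and 1 down. KRT8 rose from 85.9 to 176 FPKM (log2 fold change 1.09), NAPSA from 0.411 to 0.809 FPKM (1.03) and SCGB1A1 from 0 to 36 reads (at least 12.5-fold, although the values also allow as few as 9 reads). SFTPD fell from 20 to 3 reads, a log2 fold change of -2.49 with a counting interval of -5.07 to -0.92. The summed level of the list was 188 and 332 FPKM, of which KRT8 and KRT18 made 159 and 307 FPKM, and the other 26 genes 28.9 and 25.6 FPKM. Of 12 fibroblast and endothelial genes 2 reached 1 FPKM, the summed level was 17.3 and 11.1 FPKM, COL1A2 was at 0 in both libraries, and COL3A1 (3.3 to 1.4 FPKM) and VWF (20 to 8 reads) were called down. Of 10 immune genes, with a summed level of 4.98 and 4.67 FPKM, CD14 and ITGAM were called up and LYZ down, and CD3D and MS4A1 were at 0. The part of all these markers in the levels of the kidney factors was not tested.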

How the data were processed

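RNA was extracted with Trizol, polyA RNA was made into libraries with the NEBNext Ultra kit, and 1 library of A549-NICD1 and 1 of A549-Vector cells were sequenced. Samples were grouped by their labels. The submitters' processing notes name Bowtie2, HTSeq and hg38, and the gene lengths and the strand setting are not given in the sources used here. The authors deposited 1 value per gene and library, with no unit named, which was read from the values as FPKM. There were 19225 rows, of which 27 were not used because their names were date numbers.

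First, 256 genes with equal reads gave the ratio of the depths. A random draw then gave 300 genes above 0 in both libraries whose read ratio in lowest terms had a limited range. Depths of 48528434 reads (A549-NICD1) and 48602848 reads (A549-Vector) were those that make the lengths whole numbers, within 0.01, for at least 60% of them. The share was 69.7%. Whole reads were then recovered for 17177 of 17178 genes above 0, within 0.0002 of a whole number. They are known up to a whole-number factor, which was chosen so that the length was nearest to the longest GENCODE 29 transcript, and they add up to 117% and 118% of the depths. This factor can change filters and intervals but not ratios. Log2 fold changes compare reads (pseudocount 0.5) per scaled depth, the scaling factor of 0.96 for A549-NICD1 being a trimmed mean of log ratios (30% of ratios and 5% of levels trimmed). The pseudocount understates changes of low genes. NOTCH1 and RFC4 took 3.25% of the A549-NICD1 reads. Intervals are exact Clopper-Pearson (ratios) or Poisson (levels) intervals at 95%.

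The steps were tested on simulated data for 17177 genes with 200 changed in the comparison of A549-NICD1 with A549-Vector. Simulated reads came back as set in 97.6% of genes and ratios in 100%. The simulated lengths were those already chosen as nearest to the reference, which favours this recovery. Of 15093 intervals of unchanged genes, 95.6% held 0. These intervals were made from the simulated reads themselves, so their share does not test intervals made from recovered reads. These shares do not show that the whole-number factor was right in the real data. There the recovered reads add up to more than the depths, so some reads may be overstated and their intervals too narrow. Scripts used Python 3.11.15 with numpy 2.4.6, pandas 2.3.3, scipy 1.17.1 and matplotlib 3.10.9.

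The factors and gene lists were chosen with earlier results of these data known. Genes named are all 9 factors, the 4 most abundant and all called genes of each list, markers at 0, and NOTCH1, apart from some genes that are not reported here. Other list and family genes were named after their values were seen, as partners or targets of the factors, as Notch targets, or as markers of the label. Among them were SIX4, POU3F3, AKR1B10, AKR1C1, AKR1C2, AKR1C3, ALDH1A1, ALDH3A1, NQO1, GDNF, RET, GFRA1, NPNT, HOXA11, HOXC11, NPHS1 and the paralogs plotted. No test between conditions was made. Alternatives changed the scaling, pseudocount, filter on reads, rule of size and choice of the whole-number factor.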

Additional observations from a re-analysis of the deposited data

How the results depend on the processing

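No paired analysis was possible because there was 1 library per condition. The sign of the log2 fold change was the same for 9 of 9 factors in all 6 settings of scaling, pseudocount and read factor that were run, and 52 of 54 values lay within the counting interval. The exceptions were at a pseudocount of 1 FPKM, which shrinks changes of low genes, with -0.50 for PAX2 and -0.49 for EYA1. All settings rework the same libraries, so a constant sign is no replicate check. For WT1, LHX1, OSR1 and PAX8, whose counting intervals held 0, it shows no direction. No factor was beyond 1 log2 unit in any setting, and 2 were below with the rule set at 0.58. With the depth as deposited the median of all genes moved by -0.06.

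Counts over all genes moved with the pseudocount and the filter, from 704 up and 352 down to 322 and 128 at a pseudocount of 0.1 FPKM, 46 and 7 at 1 FPKM, 1526 and 791 with no filter on reads, 169 and 92 where both libraries summed to 100 reads or more, and 89 and 32 where the mean was 1 FPKM or more. Over the 6 nephric lists the 11 up and 4 down became 8 and 2 at 0.1 FPKM and 4 and 1 at 1 FPKM. They became 17 and 5 unfiltered, 6 and 2 at 100 summed reads or more, and 5 and 1 at a mean of 1 FPKM or more. Depth limits PAX8 and OSR1 most, and for all 9 factors the spread between cultures is unknown.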
